A study of Saccharomyces cerevisiae with 12 samples.

Results

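Deletion of the histone deacetylase genes HDA1 and RPD3 was examined in a yeast strain that already carries mutations of both 14-3-3 genes. The strain with all 4 mutations, called the combined mutant here, has the genotype bmh1-170ts bmh2∆ hda1∆ rpd3∆ and is labelled KBY3. Its comparator, the bmh mutant, has the genotype bmh1-170ts bmh2∆ and is labelled YLL1087. The members are the 6 arrays that carry these genotype labels, 3 per strain, of 12 arrays in the series. The other 6 arrays hold an hdac mutant (hda1∆ rpd3∆, labelled CTY-TY44) and the wild type W303-1A. All strains are Saccharomyces cerevisiae in the W303-1A background. Both compared strains share the temperature-sensitive BMH1 allele and the BMH2 deletion, so these do not vary here. Cultures were grown in triplicate at 30 °C in YP broth containing 5% glucose and were taken during exponential growth, at OD600 values of 0.7 to 1.3. Total RNA was read on Affymetrix Yeast Genome 2.0 arrays. The labels name 1 strain per genotype, so the arrays measure the spread between cultures of a strain and not between independently built strains.

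Rpd3 and Hda1 are the catalytic subunits of separate complexes that remove acetyl groups from histone tails. DNA-binding repressors such as Ume6 and the Tup1-Cyc8 corepressor bring them to promoters, and most of the genes described for them are repressed by them. Rpd3 is also known for a role in activation at some promoters and in restraining transcription inside genes. The 14-3-3 proteins Bmh1 and Bmh2 bind phosphorylated partners, among them the activator Adr1, which drives genes for the use of ethanol, fatty acids and other non-sugar carbon sources. In high glucose those genes are normally silent. The comparison asks what loss of the deacetylases changes in cells that carry the 14-3-3 mutations.

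Values are RMA signals on the log2 scale, as deposited, and a difference of 1 on this scale is 2-fold. The array medians of the 12 arrays lay between 8.81 and 8.85. The replicates of the combined mutant had a median SD over genes of 0.0673, those of the bmh mutant 0.0654 and those of the wild type 0.135. Wild-type array 1 stood apart: 61 genes were 2-fold or more away from the average of its replicates, against at most 1 gene for any array of the compared strains. HDA1 measured 3.85, 3.82 and 3.68 in the combined mutant, against 8.38, 8.30 and 8.15 in the bmh mutant. RPD3 measured 3.80, 3.77 and 4.10 in the combined mutant, against 9.76, 9.72 and 9.70 in the bmh mutant. The values of both genes in the combined mutant are among those from which the background is taken. BMH2 lay at 3.77 to 4.13 on the 6 arrays, and no fold is given for it. The highest value of a deleted gene in a strain that lacks it, 4.13, is used as the background. Taken from it, HDA1 was at least 17.7-fold lower and RPD3 at least 48.3-fold lower in the combined mutant. BMH1 RNA measured 12.73, 12.74 and 12.65 in the combined mutant, against 12.90, 12.96 and 12.94 in the bmh mutant (log2 difference −0.23 ± 0.056, adjusted p = 0.0030). The source names of the combined and hdac arrays give each other's strain name, and BMH2, which measured 11.70, 11.59 and 11.65 on the hdac arrays, follows the genotype labels.

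Loss of the deacetylases changed the RNA of most genes in the bmh mutant. Of 5448 genes tested, 1639 (30.1%) rose and 2449 (45%) fell in the combined mutant, in all 4088 or 75%, by limma with Benjamini-Hochberg adjustment at adjusted p under 0.05. Rises were fewer and larger: 549 genes (10.1%) rose at least 2-fold and 268 (4.92%) fell at least 2-fold. The median log2 difference over all genes was −0.12. RMA scales the probe signals of the arrays to each other, so every change is relative to the other genes of the same array. The deposited gene values do not share one distribution. Quantile normalization of them shifted the log2 differences of 644 genes with mean signal 5 to 7 by a median of −0.23. At 82.9% of genes the 3 values of the combined mutant and the 3 of the bmh mutant did not overlap. A count in a group of genes is read below against these shares. The gene lists were written with earlier results of these data known. Their counts therefore describe these data and are not an independent test.

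The largest rise was that of DAK2, a kinase that phosphorylates dihydroxyacetone. DAK2 measured 11.92, 11.90 and 11.95 in the combined mutant, against 6.13, 6.42 and 6.21 in the bmh mutant. The groups lay far apart, and the rise was 5.67 ± 0.074 on the log2 scale or 51.0-fold (adjusted p = 1.5e-13, n = 3 per strain, as for every value here). GPH1, the phosphorylase that breaks down glycogen, measured 10.87, 10.82 and 10.81 in the combined mutant, against 5.93, 5.64 and 5.77 in the bmh mutant, a 33.1-fold rise (5.05 ± 0.13, adjusted p = 1.5e-11). INO1, which makes inositol phosphate from glucose 6-phosphate, measured 12.33, 12.23 and 12.17 in the combined mutant, against 7.45, 7.47 and 7.28 in the bmh mutant (4.84 ± 0.21). In all 3 genes the groups lay more than 4 log2 units apart. POT1, the thiolase of peroxisomal beta-oxidation, measured 9.72, 9.88 and 9.78 in the combined mutant, against 4.97, 4.83 and 5.16 in the bmh mutant (4.80 ± 0.087). SGA1, a glucoamylase of sporulating cells, measured 10.95, 11.06 and 11.13 in the combined mutant, against 6.45, 6.41 and 6.36 in the bmh mutant (4.64 ± 0.072). ADY2, an acetate transporter, measured 9.10, 9.42 and 9.32 in the combined mutant, against 4.86, 5.15 and 5.07 in the bmh mutant (4.25 ± 0.11). Groups that do not overlap were a condition for the choice of these genes, and 82.9% of all genes met it. TIR3, a cell wall mannoprotein of oxygen-starved cells, rose by 4.24 ± 0.089, and GSP2, a Ran-type GTPase of nuclear transport, by 4.14 ± 0.12. The uncharacterized genes YNL033W (4.42 ± 0.12) and YAR068W (4.21 ± 0.079), the putative RNA-binding gene RNP1 (4.20 ± 0.11) and the epoxide hydrolase gene YNR064C (4.16 ± 0.19) complete the 12 largest rises. YNL033W is read by a probe set that can also bind related transcripts.

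Among the falls, BNA1, an enzyme that makes NAD from tryptophan, was the largest after the deleted genes. BNA1 measured 6.33, 6.70 and 6.58 in the combined mutant, against 10.90, 10.9998 and 10.95 in the bmh mutant, a 21.3-fold fall (−4.41 ± 0.092, adjusted p = 4.1e-12). BAR1, the protease with which a cells degrade alpha-factor, measured 7.49, 7.49 and 7.56 in the combined mutant, against 10.73, 10.85 and 10.78 in the bmh mutant (−3.27 ± 0.094). AFB1, a barrier gene against a-factor, measured 6.01, 6.40 and 6.80 in the combined mutant, against 9.61, 9.47 and 9.52 in the bmh mutant (−3.13 ± 0.14). These 3 genes were low on each array of the combined mutant without reaching the background. SST2, which switches off the pheromone signal, fell by 2.63 ± 0.077, and FUS1, needed for cell fusion in mating, by 2.40 ± 0.12. IMD2, an IMP dehydrogenase of guanine nucleotide synthesis, fell by 2.19 ± 0.084. COS7 of the subtelomeric COS family fell by 2.17 ± 0.13, and the uncharacterized YIR042C by 2.86 ± 0.11. IMD2 and COS7 are read by probe sets shared with near-identical copies. SSP1, a gene of spore membrane growth, and YER187W had a mean at or below the background in the combined mutant and were at least 5.78-fold and at least 5.67-fold lower. SSP1 measured 3.98, 3.91 and 4.22 in the combined mutant, against 6.63, 6.62 and 6.74 in the bmh mutant.

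**Figure D1:**
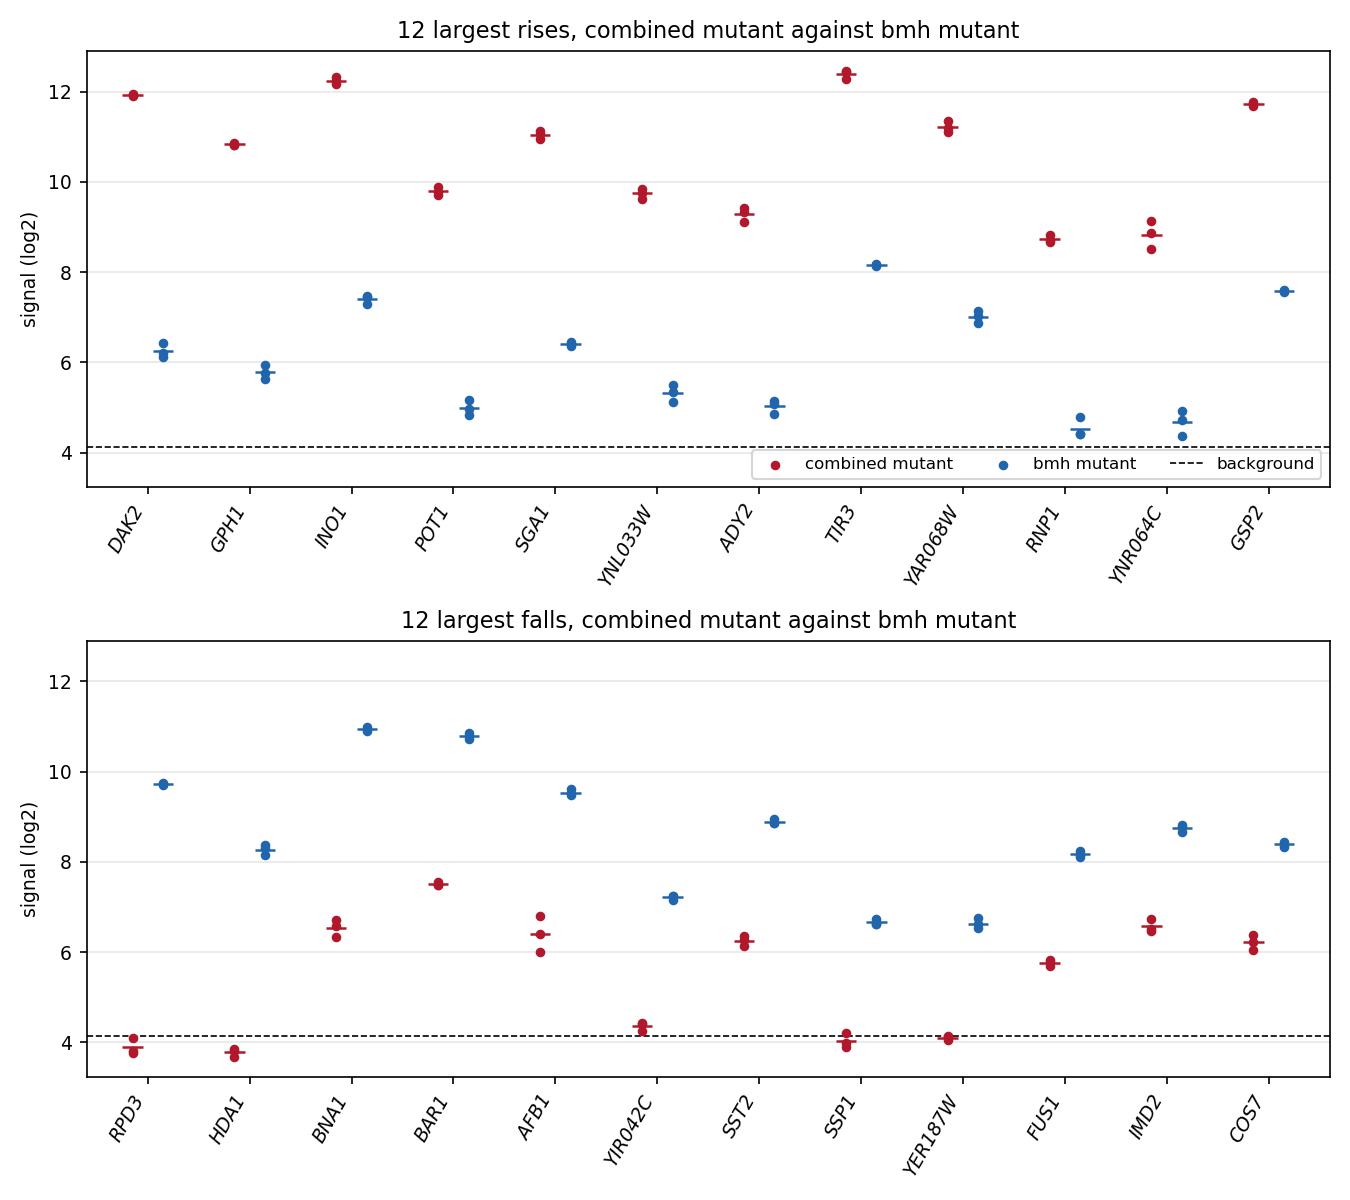
Log2 signal of the 12 genes with the largest rise (upper panel) and the 12 with the largest fall (lower panel) on each array. Points are arrays, short lines are means of 3 arrays, red is the combined mutant, blue the bmh mutant, and the dashed line is the background of 4.13. The 24 genes were chosen among those whose red and blue points do not overlap. Only RPD3, HDA1, SSP1 and YER187W have a red mean at or below the background.

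Genes of non-sugar carbon use rose together. Of the 20 Adr1-dependent genes measured, 20 rose and 0 fell, with a median log2 difference of 2.02, against 30.1% of all genes that rose and a median of −0.12. None of the 20 overlapped between the strains, and 82.9% of all genes did not overlap either. ADH2, the alcohol dehydrogenase that consumes ethanol, measured 13.93, 13.92 and 13.96 in the combined mutant, against 10.25, 9.72 and 9.86 in the bmh mutant (3.99 ± 0.17, adjusted p = 1.2e-09). ACS1, which activates acetate to acetyl-CoA, measured 12.33, 12.26 and 12.30 in the combined mutant, against 8.55, 8.51 and 8.39 in the bmh mutant (3.81 ± 0.066). ALD4, the mitochondrial acetaldehyde dehydrogenase, measured 13.21, 13.13 and 13.10 in the combined mutant, against 10.25, 9.92 and 10.01 in the bmh mutant (3.08 ± 0.18). The 3 steps that turn ethanol into acetyl-CoA were thus each higher on all arrays of the combined mutant. FDH1, a formate dehydrogenase, measured 9.06, 8.91 and 9.09 in the combined mutant, against 5.19, 4.97 and 5.16 in the bmh mutant (3.91 ± 0.12). CTA1, the peroxisomal catalase, measured 8.48, 8.40 and 8.57 in the combined mutant, against 6.38, 6.60 and 6.39 in the bmh mutant (2.03 ± 0.22). PXA1, a subunit of the peroxisomal fatty acid importer, measured 8.52, 8.45 and 8.35 in the combined mutant, against 6.20, 6.15 and 6.32 in the bmh mutant (2.22 ± 0.085). The smallest rises were 0.61 for the alcohol dehydrogenase ADH5 and 0.64 for GIP2, a subunit of a protein phosphatase. The remaining members rose too, POX1 (2.43), SPS19 (2.13), RGI2 (2.01), ETR1 (1.87), FOX2 (1.53), PIP2 (1.28), ICL2 (1.17), CIT3 (1.01), ATO3 (0.94) and GUT1 (0.76). RGI2 measured 6.21, 6.06 and 6.19 in the combined mutant, against 4.24, 4.02 and 4.16 in the bmh mutant, so it stood at the edge of the background in the bmh mutant. The sizes differed widely among members: ADH2 and ADH5 are both alcohol dehydrogenases, and their rises were 15.9-fold and 1.52-fold.

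**Figure D2:**
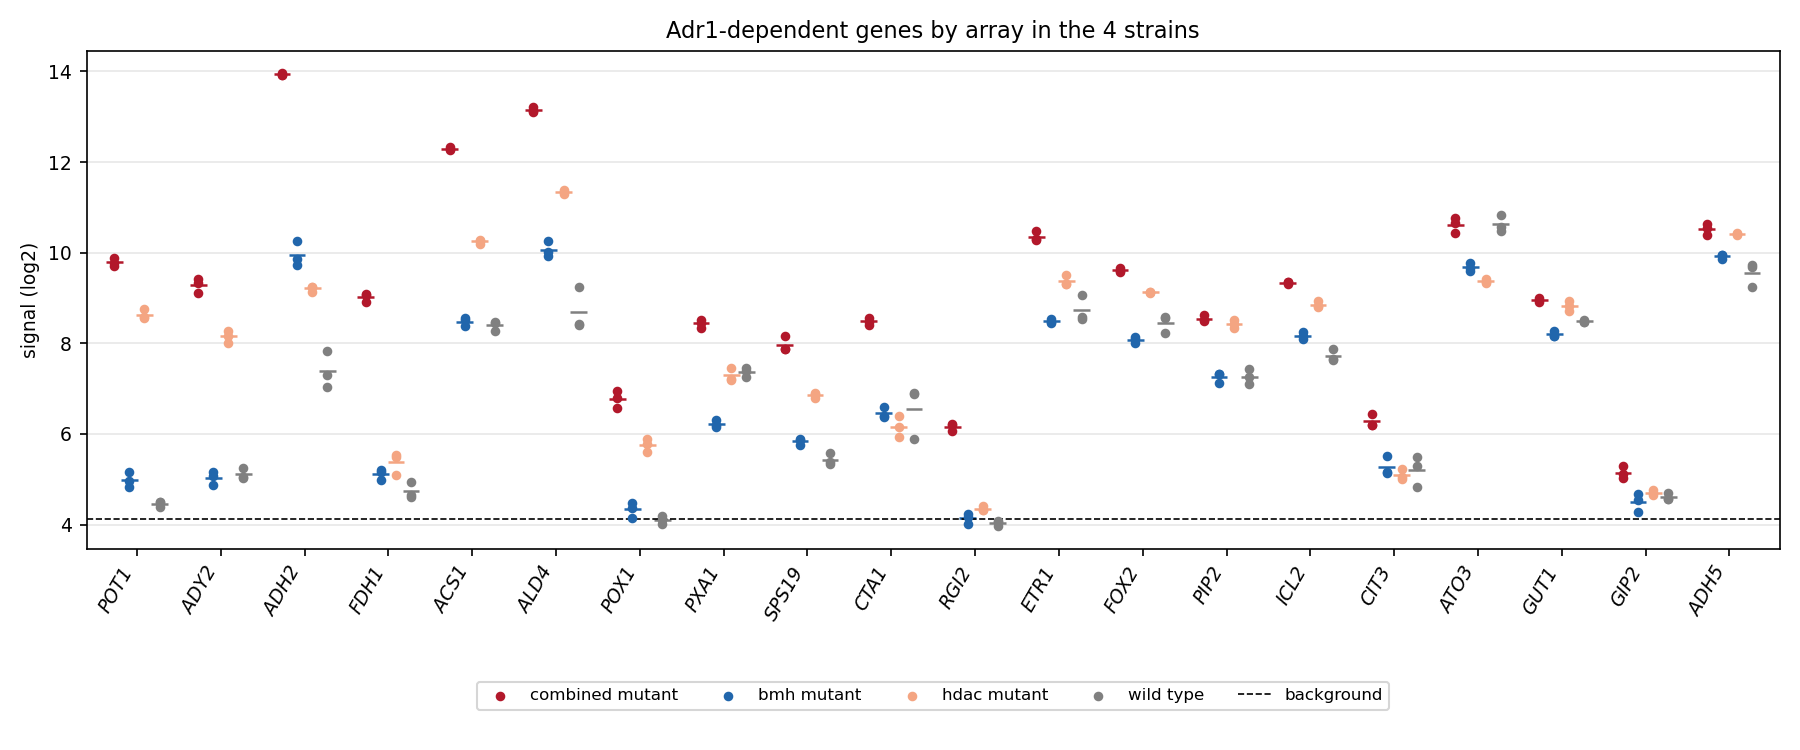
Log2 signal of the 20 Adr1-dependent genes on each of the 12 arrays, ordered by the size of the difference between the combined and the bmh mutant. Points are arrays and short lines are means of 3 arrays for, from left to right, the combined mutant (red), the bmh mutant (blue), the hdac mutant (orange) and the wild type (grey). All red points of a gene lie above all its blue points, and the dashed line marks the background of 4.13.

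Gluconeogenesis and the glyoxylate cycle, which let cells build sugar from acetate, gave 11 rises and 2 falls among 14 genes, with a median of 2.17. FBP1, fructose-1,6-bisphosphatase, rose by 2.69 ± 0.092, PCK1, which makes phosphoenolpyruvate, by 2.35 ± 0.068, and MLS1, malate synthase, by 1.98 ± 0.11. SIP4, a zinc-cluster activator of these genes, measured 9.29, 9.11 and 9.32 in the combined mutant, against 5.41, 5.35 and 5.34 in the bmh mutant (3.87 ± 0.11). The lactate transporter JEN1 (3.45) and the succinate-fumarate carrier SFC1 (3.42) rose as well. The rise of ICL1, isocitrate lyase, was 0.46 ± 0.11. CIT2 (−0.31) and MDH2 (−0.47), peroxisomal citrate synthase and cytosolic malate dehydrogenase, fell, so the enzymes of this list did not all move one way. YAT1, a carnitine acetyltransferase, had a difference of −0.18 and did not pass the test. Of the peroxisomal beta-oxidation genes 13 of 16 rose and 0 fell (median 1.60). Besides POT1 these included the acyl-CoA oxidase POX1 (2.43), the isomerase ECI1 (2.38) and the importer subunit PXA2 (2.24). POT1 and POX1 also belong to the Adr1-dependent list, and ACS1 to that list and the gluconeogenesis list, so these groups are not separate. The activator OAF1 (0.11), IDP3 (−0.13) and FAA1 (−0.20) did not pass. FAA1 passed as lower, at −0.27, −0.25 and −0.20, without combined array 1, bmh array 3 or wild-type array 1, and with the replicate block (adjusted p = 0.044).

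Genes for other sugars rose too. All 9 measured genes for sucrose, maltose and isomaltose rose, with a median of 1.51. The probe set of MAL32, a maltase, gave 9.37, 9.22 and 9.28 in the combined mutant, against 6.36, 6.17 and 6.27 in the bmh mutant (3.02 ± 0.070); it can bind the near-identical MAL12. MPH2, a maltose permease read by a shared probe set (1.95), and IMA1, an isomaltase (1.79), followed, and SUC2, invertase, rose by 0.81 ± 0.077. Among the hexose transporters 8 of 13 rose and 2 fell (median 0.60). HXT5, a transporter of slow-growing cells, measured 8.84, 8.77 and 9.10 in the combined mutant, against 5.24, 5.00 and 5.16 in the bmh mutant (3.77 ± 0.10). HXT9 (3.18) and HXT7 (2.65, read by a shared probe set) rose, and HXT11, at background in the bmh mutant, was at least 4.65-fold higher. By contrast the low-affinity transporter HXT1 measured 11.23, 11.27 and 11.20 in the combined mutant, against 12.35, 12.20 and 12.25 in the bmh mutant (−1.03 ± 0.078). HXT1, which cells use in high glucose, was therefore lower on each array, while HXT5 and HXT7 were higher. The falls were 1 without combined array 1, combined array 2, bmh array 2 or bmh array 3, since the call of HXT10, which lies at background in both strains, ended.

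Most of central glycolysis did not pass. Of 20 glycolytic genes 7 rose (35%) and 2 fell (10%), with a median of 0.05, against 30.1% and 45% of all genes. The isoforms HXK1 (hexokinase, 3.86 ± 0.25), TDH1 (glyceraldehyde phosphate dehydrogenase, 2.95 ± 0.16) and GLK1 (glucokinase, 2.48 ± 0.31) rose. HXK2, the hexokinase of glucose-grown cells that also acts in glucose repression, measured 12.86, 12.86 and 12.87 in the combined mutant, against 13.32, 13.34 and 13.29 in the bmh mutant (−0.45 ± 0.053). Differences between −0.03 and 0.06 were measured for PFK2, TPI1, PFK1, FBA1, PDC1, GPM1, CDC19, ENO2, ADH1, TDH3 and PGK1, none of which passed. In the tricarboxylic acid (TCA) cycle 11 of 16 genes rose and 1 fell (median 0.62), led by the succinyl-CoA ligase subunits LSC2 (2.25) and LSC1 (1.66) and the succinate dehydrogenase subunits SDH4 (1.85) and SDH2 (1.34). The isocitrate dehydrogenase IDP1 fell by 0.92 ± 0.081. ACO1, aconitase, rose by 0.58 ± 0.21 (adjusted p = 0.026); its call ended without any 1 combined array or bmh array 3, with adjusted p between 0.056 and 0.075. The respiratory chain and ATP synthase list had 10 rises (29.4%) and 9 falls (26.5%) among 34 genes and a median of 0.01, against 30.1% and 45% of all genes. In it the NADH dehydrogenase NDE2 (3.91) and the isoforms of low oxygen COX5B (2.53) and CYC7 (1.17) rose, while CYC1, the aerobic cytochrome c, fell by 0.70 ± 0.094.

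Reserve carbohydrate and stress genes rose. Of 17 glycogen and trehalose genes 16 rose and 0 fell, with a median of 1.39. The rises covered both the making and the breaking of glycogen: GSY1, a glycogen synthase, measured 8.03, 8.05 and 8.04 in the combined mutant, against 5.68, 5.75 and 5.57 in the bmh mutant (2.37 ± 0.11), and GDB1, the debranching enzyme, measured 10.59, 10.55 and 10.60 in the combined mutant, against 8.33, 8.25 and 8.35 in the bmh mutant (2.27 ± 0.093). GAC1, which targets a phosphatase to glycogen synthase (2.78), the initiator GLG2 (2.28) and the branching enzyme GLC3 (2.15) rose too. NTH1, neutral trehalase, had a difference of 0.16 that did not pass, though it passed without combined array 3 (0.22) or bmh array 1 (0.21). The stress genes under Msn2 and Msn4 gave 23 rises and 0 falls among 28 (median 1.35), or 1 fall, YGP1, without wild-type array 1 (adjusted p = 0.0059). XBP1, a repressor induced by stress, measured 8.69, 8.60 and 8.68 in the combined mutant, against 5.00, 5.13 and 5.04 in the bmh mutant (3.60 ± 0.088). GAD1, glutamate decarboxylase (3.41), RTN2, a reticulon (3.30), SPI1, a cell wall protein (3.15), and the small heat shock protein HSP26 (2.78) rose. CTT1 (0.21), GPD1 (0.06), ALD3 (−0.01), HSP31 (−0.09) and YGP1 (−0.35) did not pass; CTT1 passed with the replicate block (adjusted p = 0.038) and without wild-type array 1 (adjusted p = 0.043). The chaperones under Hsf1 gave 7 rises (33.3%) and 8 falls (38.1%) among 21 genes (median −0.07), close to the shares of all genes. HSP42 (1.67), HSP104 (1.49) and SSA1 (1.24) rose, and the co-chaperone SIS1 measured 10.19, 10.23 and 10.23 in the combined mutant, against 11.36, 11.82 and 11.52 in the bmh mutant (−1.35 ± 0.12).

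Ume6 recruits Rpd3 to early meiotic genes, and 24 of 29 measured genes of this group rose while 2 fell (median 1.32). IME2, a kinase that starts meiosis, measured 9.59, 9.45 and 9.58 in the combined mutant, against 6.22, 6.12 and 6.27 in the bmh mutant (3.33 ± 0.092). DMC1, the meiotic recombinase, measured 8.90, 9.01 and 8.84 in the combined mutant, against 6.12, 6.31 and 6.30 in the bmh mutant (2.67 ± 0.087). ZIP1, a protein of the synaptonemal complex, measured 8.44, 8.31 and 8.30 in the combined mutant, against 6.33, 5.69 and 6.05 in the bmh mutant (2.33 ± 0.14). SLZ1 (3.45), MND1 (2.91), the axis protein HOP1 (2.32), SPO13 (1.42) and SPO11, which makes the meiotic DNA breaks (1.35), rose as well. IME1, the master regulator of meiotic entry, measured 7.54, 7.44 and 7.55 in the combined mutant, against 5.55, 5.09 and 5.61 in the bmh mutant (2.09 ± 0.13), and UME6 itself 9.72, 9.89 and 9.78 in the combined mutant, against 7.98, 8.10 and 8.16 in the bmh mutant (1.72 ± 0.080). The members were uneven, since REC104 (−0.62) and MAM1 (−1.18) fell and CSM4 (−0.05), MER1 (−0.05) and NDT80 (−0.09) did not pass. Genes of middle and late sporulation gave 9 rises and 12 falls among 31 (median −0.15), close to the shares of all genes. SGA1 (4.64), SPS100 (1.90) and OSW2 (1.35) rose, and SPS1, a kinase of spore formation, fell by 1.44 ± 0.24. Of the 6 sporulating-cell markers SPS100 and DIT1 (0.92) rose, SPS1, SPS4 and DIT2 fell and SPS2 (−0.10) did not pass. SPS4 and DIT2 were at background in the combined mutant, at least 1.09-fold and at least 1.15-fold lower, and the call of DIT2 ended without combined array 1 or 2 or bmh array 1. In bulk RNA, fewer cells of a kind and less RNA per cell cannot be told apart.

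Several starvation and surface groups rose. Of the anaerobic and seripauperin mannoproteins 13 of 19 rose and 0 fell (median 1.0007), with TIR1 at 10.67, 10.78 and 10.89 in the combined mutant, against 7.13, 7.37 and 7.78 in the bmh mutant (3.35 ± 0.24) and DAN1 at 6.61, 6.52 and 7.15 in the combined mutant, against 4.62, 4.46 and 4.36 in the bmh mutant (2.28 ± 0.18). Shared probe sets read 10 of the 19, and without shared probe sets 6 rises were left. Without wild-type array 1 there were 2 falls. Of 8 flocculins and adhesins 7 rose and 0 fell (median 1.51). Of these FLO11, an adhesin of filamentous growth, measured 9.18, 9.21 and 9.41 in the combined mutant, against 7.10, 7.25 and 7.49 in the bmh mutant (1.99 ± 0.12), and the mannoprotein HPF1 rose by 2.65 ± 0.17. The cell wall list had 13 rises and 2 falls among 23, with PIR3 (2.41) and PST1 (1.64) rising and the cell integrity kinase SLT2 (−0.60) and its target factor RLM1 (−0.65) falling.

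Phosphate starvation genes gave 10 rises and 2 falls among 16 (median 0.39). PHO5, a secreted acid phosphatase, measured 13.17, 13.31 and 13.28 in the combined mutant, against 9.49, 8.86 and 9.01 in the bmh mutant (4.13 ± 0.13, adjusted p = 1.0e-10). PHO89, a sodium-phosphate cotransporter, rose by 3.42 ± 0.25, and SPL2, which acts on low-affinity phosphate uptake, by 2.38 ± 0.12. PHO84, the high-affinity transporter, rose by 0.23 ± 0.068, and PHO4, the activator, had 0.04 and did not pass. The falls were PHO3 (−0.31) and PHM6 (−0.36), and the call of PHM6 ended without bmh array 1 (−0.23, adjusted p = 0.053). Of 22 iron uptake genes under Aft1 11 rose and 3 fell (median 0.42), with the siderophore-binding mannoprotein FIT3 (3.04) and the siderophore transporter SIT1 (1.81) rising and the reductase FRE1 (−0.75) falling. Of 24 sulfur and methionine genes 16 rose and 2 fell (median 0.70). In that list STR3 (2.73), MET2 (1.78) and the sulfate permease SUL1 (1.68) rose most. Vitamin B6 and thiamine genes gave 11 rises and 3 falls among 16. SNO1 measured 10.30, 10.51 and 10.64 in the combined mutant, against 7.23, 7.17 and 7.08 in the bmh mutant (3.32 ± 0.16), and its neighbour and partner in vitamin B6 synthesis, SNZ1, rose by 2.51 ± 0.074.

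Phospholipid synthesis under inositol control had 9 rises and 3 falls among 15 (median 0.38), and INO1 stood far from the other members. The next rises were OPI3 (0.93) and CHO1 (0.73), which act in phosphatidylcholine and phosphatidylserine synthesis. OPI1, the repressor of INO1, measured 9.36, 9.43 and 9.30 in the combined mutant, against 10.23, 10.27 and 10.21 in the bmh mutant (−0.87 ± 0.15). INO2, one of its activators, had −0.40 and did not pass, though it did without wild-type array 1 (adjusted p = 6.0e-05). Of 12 DNA damage response genes 10 rose and 2 fell (median 0.64). RNR3, the damage-induced subunit of ribonucleotide reductase, measured 9.96, 9.97 and 10.06 in the combined mutant, against 6.99, 6.94 and 6.82 in the bmh mutant (3.08 ± 0.076), and HUG1, which acts on the same enzyme, rose by 2.10 ± 0.087. Few histone genes passed. Of 10 histone genes 3 rose (30%, against 30.1% of all genes), the linker histone gene HHO1 (0.98), the centromeric CSE4 (0.42) and HTB2 (0.25), and 0 fell. The others lay between −0.09 (HHT1) and 0.04 (HHF1).

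Other groups held mostly falls. Of 40 ribosome biogenesis genes 40 fell and 0 rose, with a median of −0.62, against 45% of all genes that fell. Single falls were modest and ranged from −0.30 for RPA190, the largest subunit of RNA polymerase I, to −1.48 for the helicase SPB4. SPB4 measured 7.58, 7.38 and 7.25 in the combined mutant, against 9.01, 8.86 and 8.76 in the bmh mutant. MAK16 (−1.17), RLP7 (−1.05), RPA43 (−1.02) and UTP5 (−1.01) also fell at least 2-fold. The cytosolic ribosomal protein genes had 1 rise, RPL15B (0.61), and 54 falls among 128, with a median of −0.09. That is 0.781% rises and 42.2% falls, against 30.1% and 45% of all genes, and 73 of the 128 did not pass, against 1360 of all 5448 genes. The 128 genes and the 54 falls include RPP1 (−1.01), which encodes an RNase P subunit and not a ribosomal protein. There were 2 rises without wild-type array 1, and 27 of the 128 genes are read by shared probe sets. The counts also depend on the variance model. With trend and robust settings of eBayes, RPL4A (0.10), RPS14A (0.07), RPS22B (0.16), RPS27B (0.07) and RPS29B (0.07) passed as higher too. Further genes then passed as lower, among them RPL7A (−0.10) and RPS15 (−0.09), so fewer genes did not pass.

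NAD synthesis gave 11 falls and 2 rises among 15 genes (median −0.85). Falls were found in the pathway from tryptophan and in the uptake and salvage of nicotinic acid. After BNA1, the next step BNA6, quinolinate phosphoribosyltransferase, measured 7.65, 7.66 and 7.84 in the combined mutant, against 9.60, 9.51 and 9.70 in the bmh mutant (−1.89 ± 0.086). TNA1, the nicotinic acid permease, measured 9.12, 9.25 and 9.43 in the combined mutant, against 10.92, 10.88 and 10.92 in the bmh mutant (−1.64 ± 0.086). NPT1, which starts the salvage of nicotinic acid, fell by 1.10 ± 0.058. BNA4 (−1.33), BNA2 (−0.95), BNA7 (−0.44), BNA5 (−0.29), NRT1 (−1.35), NRK1 (−0.85) and NMA1 (−0.37) fell as well, and the call of BNA5 ended without combined array 2 or bmh array 3 (adjusted p = 0.059 and 0.059). BNA3 (0.93) and the nicotinamidase PNC1 (0.82) rose, and NMA2 (−0.09) and QNS1 (−0.03) did not pass.

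Both compared strains had the transcripts of a cells. STE2, the alpha-factor receptor of a cells, measured 10.88, 10.88 and 10.89 in the combined mutant, against 12.61, 12.61 and 12.65 in the bmh mutant (−1.74 ± 0.076). MFA1, an a-factor gene, measured 8.99, 9.10 and 9.10 in the combined mutant, against 11.15, 11.22 and 11.20 in the bmh mutant (−2.13 ± 0.11). STE6, the a-factor exporter, measured 8.53, 8.39 and 8.41 in the combined mutant, against 10.45, 10.47 and 10.31 in the bmh mutant (−1.97 ± 0.066). All 3 were lower in the combined mutant yet far above the background. MFA2 (−1.38 ± 0.080) and BAR1 fell with them, and AGA2, an agglutinin subunit, had −0.12 and did not pass. ASG7 fell by 0.37 ± 0.14 (adjusted p = 0.034), and its call ended without combined array 2 or 3 or bmh array 2 or 3, with adjusted p of 0.068 to 0.12. In all 6 of 7 a-cell genes fell and 0 rose (median −1.74). Of 4 alpha-cell genes 1 rose and 2 fell. MF(ALPHA)1, at or below 4.25 on all 6 arrays, is at background in both strains despite its call, and STE3, the a-factor receptor, was at or below 4.91 (−0.40 ± 0.096). SAG1, the alpha-agglutinin, rose, with 9.43, 9.47 and 9.69 in the combined mutant, against 8.09, 8.13 and 8.24 in the bmh mutant (1.38 ± 0.093), and MF(ALPHA)2 had 0.27 and did not pass, though it passed as higher without bmh array 2 (0.37) or bmh array 3 (0.33). The labels do not give a mating type.

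**Figure D3:**
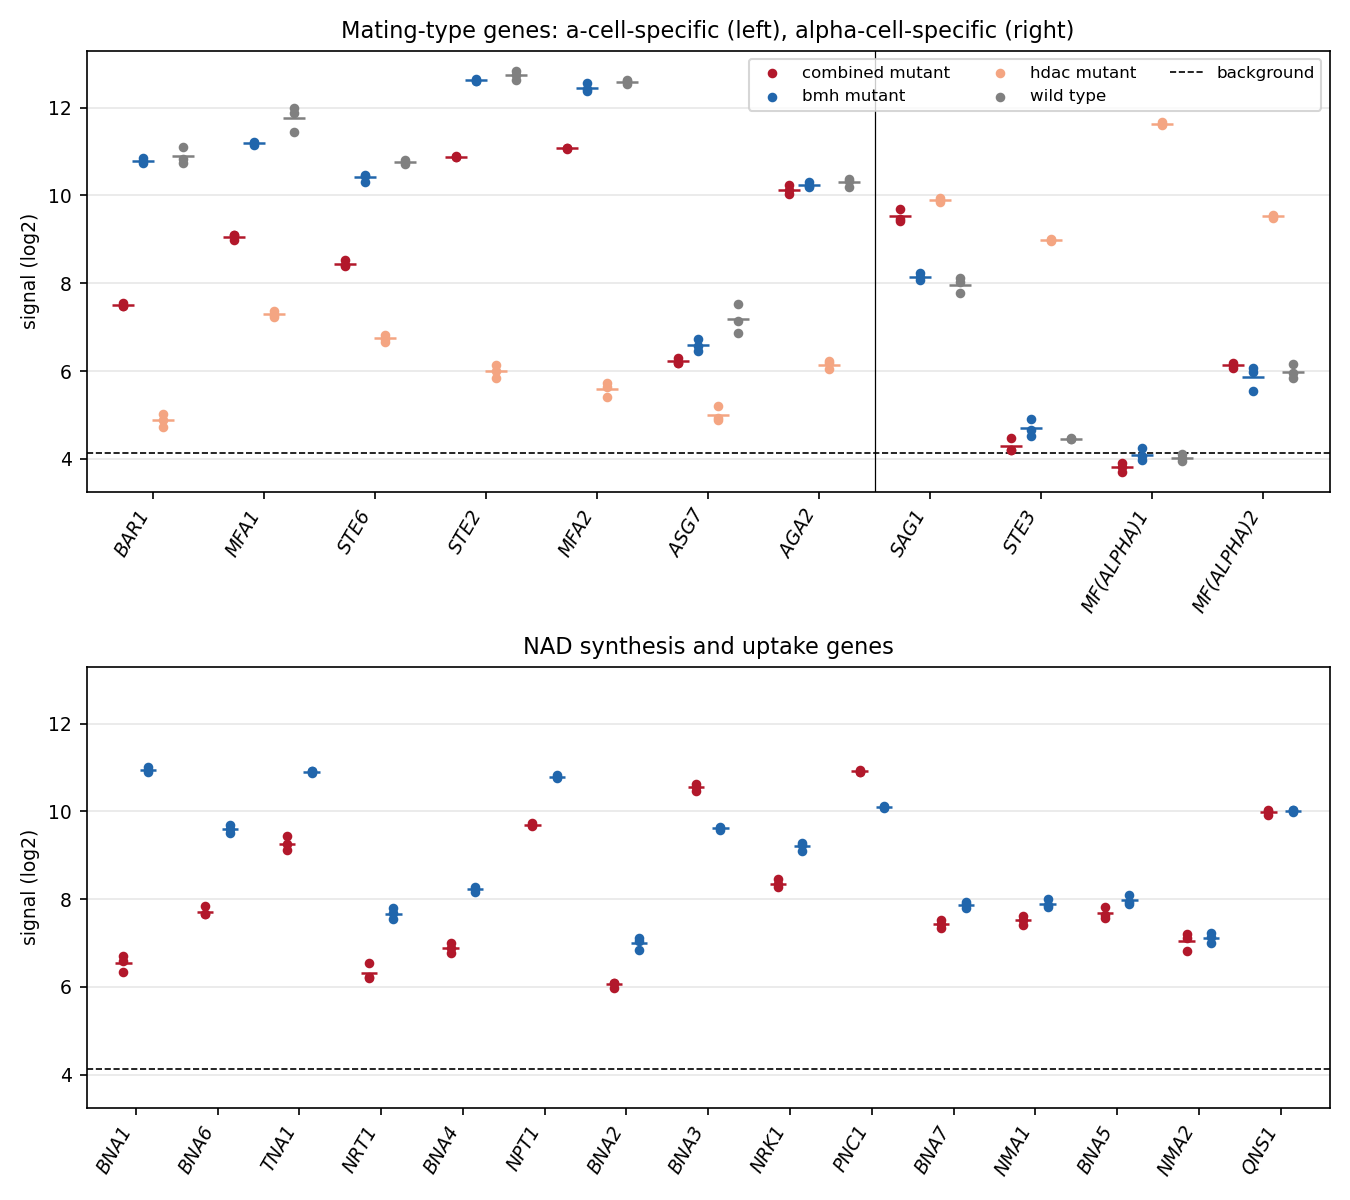
Log2 signal on each array of the a-cell-specific and alpha-cell-specific genes in the 4 strains (upper panel) and of the 15 NAD synthesis and uptake genes in the compared strains (lower panel). Points are arrays, short lines are means of 3 arrays, and the dashed line is the background of 4.13. In the combined mutant (red) STE2 lies between 10.88 and 10.89 and MF(ALPHA)1 below the background, unlike the hdac mutant (orange).

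The pheromone pathway, which a cells and alpha cells share, gave 15 falls and 3 rises among 20 genes (median −0.62). GPA1, the G protein alpha subunit, measured 8.83, 8.72 and 8.68 in the combined mutant, against 10.50, 10.48 and 10.43 in the bmh mutant (−1.73 ± 0.062). STE12, the transcription factor at the end of the pathway, measured 8.14, 7.96 and 8.01 in the combined mutant, against 9.49, 9.44 and 9.38 in the bmh mutant (−1.40 ± 0.089). The kinases FUS3 (−1.0035) and KSS1 (−0.90), the G protein subunits STE4 (−0.89) and STE18 (−0.41), and the arrest factor FAR1 (−0.83) fell. The rises were FIG2 (1.39), HO, the mating-type switching endonuclease (1.32), and PRM1 (0.41). The lower RNA was therefore spread over receptor, G protein, kinases, transcription factor and targets.

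Of 27 genes under nitrogen catabolite repression 9 rose (33.3%) and 11 fell (40.7%), with a median of −0.14, close to the shares and the median of all genes. Its single members with large changes are given as values. CAR2, ornithine transaminase, measured 10.77, 10.72 and 10.88 in the combined mutant, against 7.70, 7.41 and 7.50 in the bmh mutant (3.25 ± 0.19), and UGA2 (2.52), PUT1 (1.98), UGA1 (1.74), CAR1 (1.37) and GDH2 (1.21) rose. MEP2, an ammonium permease, measured 10.07, 10.22 and 10.22 in the combined mutant, against 12.33, 12.41 and 12.23 in the bmh mutant (−2.15 ± 0.18), and the general permease GAP1 (−1.16), the repressor DAL80 (−1.78) and the allantoin genes DAL7 (−1.44), DAL1 (−1.23) and DAL4 (−0.94) fell. Of the 33 amino acid synthesis genes under Gcn4 9 rose (27.3%) and 16 fell (48.5%), also close to all genes, with ASN1, asparagine synthetase, at −1.09 ± 0.062 and HIS1 at −0.90 ± 0.065 beside the rises of SNO1 and SNZ1. In purine and one-carbon metabolism 5 of 18 rose (27.8%) and 9 fell (50%), again close to all genes. ADE8 (−1.54) and IMD2 fell most, and GCV2, of the glycine cleavage system, rose by 1.60 ± 0.14.

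Ergosterol synthesis had 14 falls and 5 rises among 23 (median −0.25). ERG26, a sterol dehydrogenase, measured 9.03, 9.27 and 9.22 in the combined mutant, against 10.96, 11.05 and 11.0025 in the bmh mutant (−1.83 ± 0.066), and ERG7 fell by 1.21 ± 0.058, while HMG2, the reductase isoform of low oxygen, rose by 1.49 ± 0.055. Of 9 COS genes 5 fell (55.6%) and 1 rose (11.1%), against 45% and 30.1% of all genes. The rise of COS6 ended without combined array 3, and COS7, COS2 and COS4 are read by shared probe sets. The G2/M list had 8 falls and 1 rise among 13. CLB2, a mitotic cyclin, fell by 1.05 ± 0.076 and CDC5, the polo kinase, by 0.81 ± 0.063, whereas CLB1 rose by 0.82 ± 0.068. A further G2/M gene passed as higher without combined array 3, bmh array 1 or wild-type array 1, and with the replicate block. The G1 list had 7 rises (36.8%) and 4 falls (21.1%) among 19 and a median of 0.05, against 30.1% and 45% of all genes. The retrograde list, whose genes report on mitochondria, had 1 rise, ACO1, and 6 falls among 10. With any array that ended the call of ACO1 left out there were 0 rises, and without wild-type array 1 there were 2.

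The other deacetylase genes were measured as well. HOS3 rose by 0.95 ± 0.085 and HST2 by 0.38 ± 0.096. HOS1 measured 5.54, 5.90 and 5.82 in the combined mutant, against 6.96, 6.84 and 6.85 in the bmh mutant (−1.13 ± 0.11), and SIR2 (−0.69), HST4 (−0.64), HST1 (−0.53), HOS2 (−0.50) and HST3 (−0.50) fell. Of 17 partners of Rpd3 and Hda1 4 rose (23.5%) and 6 fell (35.3%), with a median of −0.08, against 30.1% and 45% of all genes. SIN3, the scaffold of the Rpd3 complexes, had −0.02 and HDA3 −0.06, neither of which passed, and HDA2 fell by 0.22 ± 0.065. Genes used as selection markers also differed. LEU2 measured 11.88, 12.02 and 12.05 in the combined mutant, against 10.94, 11.05 and 10.93 in the bmh mutant (1.01 ± 0.11), and ADE2 (−0.9996), URA3 (−0.91) and CAN1 (−1.56) fell. The small rise of HIS3 (0.15) ended without combined array 2 or 3 or bmh array 1 or 2, and with the replicate block (adjusted p = 0.051). Marker genotype and deacetylase genotype cannot be told apart for these genes.

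Position and signal level were compared with the calls as descriptions. By gene order in the RefSeq annotation of assembly R64, 235 genes were among the 10 outermost protein-coding genes of a chromosome end. Of these 102 (43.4%) rose and 68 (28.9%) fell, against 29.4% and 45.7% of the 5210 genes further in. Rises of at least 2-fold made up 25.1% of the outermost genes and 9.40% of the others. They included YAR068W, FDH1, HXK1, JEN1 and PHO89. Genes 11 to 20 from an end had 36.8% rises, and DAK2, POT1, YNR064C and ACS1 lay there, while genes 21 to 30 from an end had 29.5%. Shared probe sets read 52 of the outermost genes, and without them 40.4% rose and 21.9% did so at least 2-fold. Signal in the wild type, whose arrays are not in this contrast, was compared with the calls separately, and position was not split by signal. Over 4 bins of 1362 genes each, ordered by that signal, 45.3% rose, 24.4% at least 2-fold, and 30.3% fell in the lowest bin. That bin spans 3.58 to 7.59 and so holds genes near the background, which have little room to fall. In the highest bin 20.7% rose, 2.86% at least 2-fold, and 52.2% fell.

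The same deletions were also made in the wild type, and the difference between both changes was tested for each gene as an interaction. It was called for 1289 genes (23.7%), 671 (12.3%) with a more positive and 618 (11.3%) with a more negative change in the bmh background. This count was 1962 without wild-type array 1 and 2233 with array weights. The hdac mutant carried the transcripts of alpha cells (MF(ALPHA)1 at 11.63, 11.67 and 11.61), so mating type and 14-3-3 function cannot be told apart in this test. For 16 of the 20 Adr1-dependent genes the rise in the bmh background exceeded the change in the wild type, and for 0 it was smaller. ADH2 changed by 3.99 ± 0.17 in the bmh background and 1.82 ± 0.17 in the wild type, a difference of 2.17 ± 0.24 (adjusted p = 4.8e-05). FDH1 changed by 3.91 ± 0.12 against 0.64 ± 0.12, a difference of 3.28 ± 0.17 (adjusted p = 9.5e-08). PXA1 changed by 2.22 ± 0.085 against −0.07 ± 0.085 and CTA1 by 2.03 ± 0.22 against −0.41 ± 0.22. The members without a called difference were ADH5 (−0.25), ALD4 (0.43), ICL2 (0.05) and PIP2 (0.12). The count of 16 was 16 again without any 1 of the 12 arrays.

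For other genes the difference between the backgrounds did not pass or ran the opposite way. Among the 12 largest rises DAK2 had the largest difference, 2.81 ± 0.11 (adjusted p = 4.4e-09), with changes of 5.67 ± 0.074 in the bmh background against 2.87 ± 0.074 in the wild type. The differences for INO1 (0.66), TIR3 (0.29), GSP2 (0.45) and YNL033W (0.51) did not pass, and BNA1 fell by 4.41 in the bmh background, with −4.66 in the wild type (difference 0.25, adjusted p = 0.20). INO1, TIR3 and GSP2 passed without wild-type array 1, at 0.9978, 0.34 and 0.27. GSP2 also passed without wild-type array 3 (0.56), YNL033W without bmh array 2 (0.60) or wild-type array 2 (0.61), and BNA1 without combined array 1 (0.35). YNR064C (−1.05) and SGA1 (−0.36) rose less in the bmh background; the difference for SGA1 ended without combined array 1, bmh array 1 or hdac array 1, with adjusted p of 0.053 to 0.057, and under quantile normalization (−0.28, adjusted p = 0.066). IMD2 fell in the bmh background, where the difference from the wild type was −1.72 ± 0.12 (adjusted p = 9.7e-07). In the early meiotic list 13 of 29 genes had a more positive change in the bmh background and 1 a more negative one. Of the 40 ribosome biogenesis genes 0 had a more positive and 1 a more negative change. Among the 33 amino acid synthesis genes under Gcn4, 5 had a more positive and 20 a more negative change. In purine and one-carbon metabolism these counts were 1 and 10 of 18. Over all genes the shares were 12.3% and 11.3%.

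**Figure D4:**
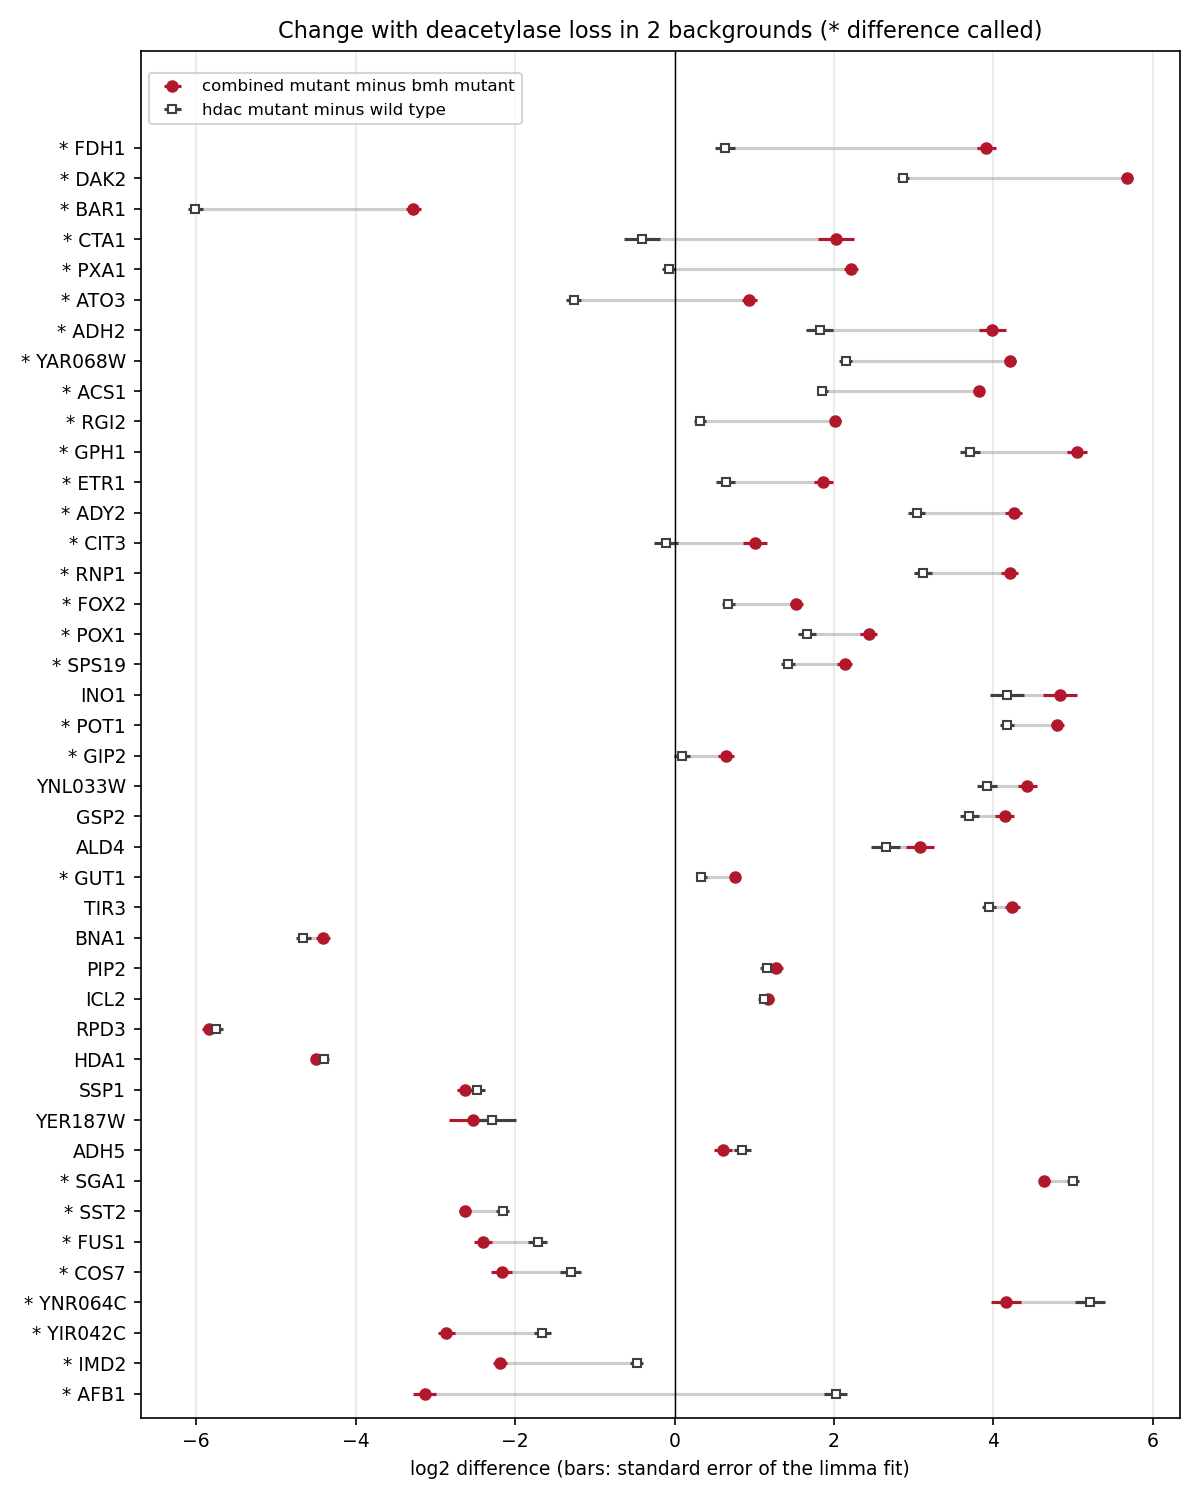
Log2 difference of the combined mutant minus the bmh mutant (red circles) and of the hdac mutant minus the wild type (open squares). Shown are the 24 genes with the largest changes and the Adr1-dependent genes. Bars are standard errors of the limma fit, grey lines join both values of a gene, and an asterisk marks a called interaction. FDH1 has the widest gap with a larger value in the bmh background, and AFB1 the widest in the opposite sense, −3.13 against 2.02.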

How the data were processed

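The 12 arrays, 3 per strain, were grouped by the genotype labels. The authors deposited RMA signals on a log2 scale. Per the submitters' processing notes, affy was used; no version was stated, and base 2 was inferred from RMA and the range of 3.39 to 14.87. No other normalization was applied. Of 5715 probe sets 5497 had 1 gene symbol, 0 several and 218 none; 12 symbols were updated through Entrez identifiers. The brightest probe set per gene was kept (49 dropped), leaving 5448 genes, 118 of them on probe sets ending in _s_at or _x_at that may cross-hybridize.

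Tests used limma 3.58.1 under R 4.3.3, with a means model of 4 strains on all 12 arrays, lmFit and eBayes, with Benjamini-Hochberg adjustment over the 5448 genes. Errors after ± are standard errors of the fit. The method was tested on simulated data with independent noise and few changed genes, unlike the data here. There it called 29.3% of log2 changes of 0.25, 79.9% of 0.5 and 98.3% of 1, and 4.99% of its calls were false. Deviations from the strain means correlated at 0.135, 0.100 and 0.129 between same-numbered arrays of the compared strains and between −0.106 and −0.0306 otherwise. Deviations cancel out within a strain, so part of this contrast is forced. The numbers may pair these cultures, a reading of the data that the labels do not state. The main tests did not use this pairing, and the replicate block that does was an alternative. Background was the highest of 18 values of deleted genes; for a gene at or below it in 1 strain the fold is a bound.

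Named genes are the 12 largest rises and falls that were called, did not overlap and had a mean above background in at least 1 compared strain, up to 4 called members of each list with the largest change, and members of the Adr1, mating-type and deacetylase lists; others, chosen after their values were seen, complete the lists' accounts. The members and the 41 gene lists were chosen with earlier results of these data known. No test over lists was made. Promoter motifs were planned but not analysed here. Alternatives are given in the closing section.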

Additional observations from a re-analysis of the deposited data

Results flagged for a closer look

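For 54 genes the change from the bmh mutant to the combined mutant was set against that from the wild type to the hdac mutant. They were the 24 with the largest changes, the 4 mutated genes and the Adr1-dependent and mating-type genes. The hdac mutant also differs in its mating-type transcripts. The limma interaction was called for 39 of them, 27 with a positive and 12 with a negative difference. Each value is the log2 change in the bmh background minus the log2 change in the wild type.

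Adr1-dependent genes with a more positive change in the bmh background were FDH1 (3.28, adjusted p = 9.5e-08), CTA1 (2.44, adjusted p = 1.4e-04), PXA1 (2.29, adjusted p = 8.9e-08), ATO3 (2.205, adjusted p = 3.9e-07), ADH2 (2.17, adjusted p = 4.8e-05), ACS1 (1.96, adjusted p = 3.9e-08), RGI2 (1.69, adjusted p = 2.1e-07) and ETR1 (1.23, adjusted p = 2.3e-04). Not all of these genes rose in the wild type. Smaller positive differences of the same list were those of ADY2 (1.21, adjusted p = 1.0e-04), CIT3 (1.12, adjusted p = 0.0030), FOX2 (0.86, adjusted p = 2.7e-04), POX1 (0.78, adjusted p = 0.0037), SPS19 (0.71, adjusted p = 0.0016), POT1 (0.63, adjusted p = 0.0029), GIP2 (0.55, adjusted p = 0.013) and GUT1 (0.42, adjusted p = 0.0058). Other genes that rose more in the bmh background were DAK2 (2.81, adjusted p = 4.4e-09), YAR068W (2.06, adjusted p = 1.1e-07), GPH1 (1.34, adjusted p = 1.8e-04) and RNP1 (1.09, adjusted p = 3.5e-04). Rises were smaller there for YNR064C (−1.05, adjusted p = 0.012) and SGA1 (−0.36, adjusted p = 0.021). Falls were larger there for IMD2 (−1.72, adjusted p = 9.7e-07), YIR042C (−1.20, adjusted p = 1.2e-04), COS7 (−0.86, adjusted p = 0.0056), FUS1 (−0.69, adjusted p = 0.011) and SST2 (−0.48, adjusted p = 0.0079).

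Mating-type genes had the widest differences. The a-cell genes fell less in the bmh background or did not pass there: MFA2 (5.63, adjusted p = 8.2e-12), STE2 (5.00, adjusted p = 1.2e-11), AGA2 (4.03, adjusted p = 1.2e-10), BAR1 (2.74, adjusted p = 4.4e-08), MFA1 (2.35, adjusted p = 8.5e-07), STE6 (2.05, adjusted p = 2.7e-08) and ASG7 (1.81, adjusted p = 5.0e-05). The genes of alpha cells and the a-factor barrier gene had lower changes there: MF(ALPHA)1 (−7.90, adjusted p = 1.5e-13), AFB1 (−5.16, adjusted p = 6.8e-09), STE3 (−4.93, adjusted p = 1.5e-10), MF(ALPHA)2 (−3.27, adjusted p = 8.9e-08) and SAG1 (−0.55, adjusted p = 0.0097). STE2 measured 10.88, 10.88 and 10.89 in the combined mutant and 5.85, 6.13 and 6.01 in the hdac mutant, and HMLALPHA1, read by a probe set for the alpha1 regulator, measured 3.78, 3.80 and 3.88 in the combined mutant and 10.45, 10.47 and 10.51 in the hdac mutant. Mating type and 14-3-3 genotype cannot be told apart for these genes.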

How the results depend on the processing

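The counts of genes changed, higher and lower stayed within 1.5 times of 4088, 1639 and 2449 under all alternatives tried. These were other scalings (quantile, median), removal of dim genes, eBayes with trend and robust settings, array weights, a fit of the 6 compared arrays, the replicate block, other probe set choices, adjusted p under 0.01, and omission of single arrays. With the replicate block 4019 genes were called and 1174 interactions, and with the block on the compared arrays alone, chosen after seeing the data, 4399. Dropping the dimmest of 4 equal bins of genes by mean signal lowered the counts of at least 2-fold rises and falls to 313 and 177, with fewer genes tested. It also left 10 of the 20 Adr1-dependent genes and 0 of the 29 early meiotic genes among the calls. Without 1 array, wild-type array 1 included as a choice made after seeing the data, 3829 to 4381 genes were called, 1536 to 1763 higher, 2271 to 2618 lower, 542 to 557 at least 2-fold higher and 263 to 281 at least 2-fold lower. The interaction was called for 1289 genes, 2233 with array weights, 738 at adjusted p under 0.01, and 1051 to 1962 without 1 of the 12 arrays, the highest without wild-type array 1; the cause was not tested. The 16 Adr1-dependent genes with a positive interaction were 15 under quantile normalization, where GIP2 ended (0.52, adjusted p = 0.058), and at adjusted p under 0.01, and 14 of 18 and 6 of 10 when dim genes were left out. Of the 815 genes of the lists and named genes, 176 changed their side of the threshold under some alternative. PHR1 of the DNA damage list reversed, at −0.13 under quantile normalization (adjusted p = 0.14), which shifted differences of dim genes by as much as −0.42 and moved 394 genes by over 0.2. Among genes named in the text, quantile normalization ended the calls of PRM1 (0.06), DIT2, BMH2, HXT10 and MF(ALPHA)1 (−0.16) and made HDA3 (−0.43), IDP3 (−0.37), NDT80 (−0.43) and ALD3 (−0.34) pass as lower. Median centring put the median of all genes at −0.10. Values near 4.13 have no order, and 3 arrays per strain limit the precision.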
